A study of Homo sapiens with 10 samples.

Results

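The genes described are those of the D cyclins and the RB pocket proteins with their closest partners, 10 genes chosen by name: CCND1, CCND2, CCND3, CDK4, CDK6, RB1, RBL1, RBL2, E2F4 and E2F5. They were read from every non-control spot that carries one of these gene names, which gave 38 of 43376 spots and 20 of 41000 probes, and 10 of the 28090 genes named on the array. For 9 of them at least 1 probe stood well above background on both arrays of a group, as did 19718 genes in all, and CCND2 did not.

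The study asked how PC-3 cells, a line from a human prostate carcinoma, respond to luteolin, a plant flavonoid, and gefitinib, an inhibitor of the EGF receptor kinase. Messenger RNA was hybridized to 10 single-color Agilent 4×44K arrays, 2 per group. The groups were untreated cells taken at 0 h and cells kept for 24 h with the solvent DMSO, with 60 µM luteolin, with 60 µM gefitinib, or with 60 µM of each. All cells were of the same line in the same medium, at 35°C by the labels, and the labels call the 2 arrays of a group biological replicates. For the 6 drug-treated arrays the scanner file is named for a different treatment than the label gives: those labelled luteolin are named for gefitinib, those labelled gefitinib for both drugs, and those labelled luteolin plus gefitinib for luteolin. Drug names therefore mean the labels throughout, and every direction given for a drug group depends on them.

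D cyclins bind and switch on the kinases CDK4 and CDK6, which phosphorylate the pocket proteins RB1, RBL1 (p107) and RBL2 (p130). Unphosphorylated pocket proteins hold E2F transcription factors: RB1 mainly the activating ones, RBL1 and RBL2 mainly E2F4 and E2F5, with which they repress cell cycle genes in resting cells. Phosphorylation frees E2F and lets the cell pass from G1 into S phase, and E2F in turn transcribes genes of DNA synthesis and several of its own regulators, RBL1 among them.

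Letters of the kind that E2F binds were looked for in promoter sequences. That of RBL1 is shown because its mRNA was the pocket protein transcript with the largest change below. The 250 bases before each RefSeq start (build GRCh38.p14, gene strand) were searched on both strands for the E2F letters TTTCCCGC, TTTGGCGC, TTTCGCGC and TTTGCCGC. Any of them occurred in 979 of 35116 promoters (2.79%). RefSeq entries were at hand for 7 members with 11 starts, some of them alternative starts, and RBL1 alone among these 7 held a match. The single RB1 entry lies at an alternative start inside the gene, so the usual RB1 promoter was not searched. The RBL1 stretch is chr20:37095998-37096247, minus strand, with TTTCGCGC beginning 26 bases and TTTGGCGC beginning 16 bases before the start. E2F1 (chr20:33686386-33686635, minus strand) is set beside it as the best known self-regulated gene of the pathway, with TTTGGCGC beginning 20 bases before the start and TTTGCCGC on the other strand 33 bases before it. RBL2 (chr16:53434221-53434470, plus strand) is the sister gene with no match to these letters at either of its starts. CCND1, CCND2 and E2F5 had no entry. Capitals mark the matches, which describe letters and not sites in use.
RBL1: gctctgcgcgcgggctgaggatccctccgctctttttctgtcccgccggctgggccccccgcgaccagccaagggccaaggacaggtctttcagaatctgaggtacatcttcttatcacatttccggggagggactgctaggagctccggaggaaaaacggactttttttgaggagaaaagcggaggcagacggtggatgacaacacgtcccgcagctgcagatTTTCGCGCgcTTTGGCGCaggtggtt
E2F1: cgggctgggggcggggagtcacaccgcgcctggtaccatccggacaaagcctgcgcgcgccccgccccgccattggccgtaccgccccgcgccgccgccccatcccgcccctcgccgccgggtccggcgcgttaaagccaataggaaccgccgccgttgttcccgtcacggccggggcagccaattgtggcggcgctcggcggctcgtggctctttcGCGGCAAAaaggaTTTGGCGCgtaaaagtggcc
RBL2: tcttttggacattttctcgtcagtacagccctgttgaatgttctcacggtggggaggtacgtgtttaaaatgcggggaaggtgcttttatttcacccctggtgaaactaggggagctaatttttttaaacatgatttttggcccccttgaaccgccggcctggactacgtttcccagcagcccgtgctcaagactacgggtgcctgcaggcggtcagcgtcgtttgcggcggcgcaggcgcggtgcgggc

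Levels are log2 values of the processed signal after subtracting each array's own 75th percentile, and differences are log2 differences between group means with their standard error (SE). A gene was called when the limma p, adjusted over all 28776 probes kept, was under 0.05 and the difference reached 2-fold, a log2 difference of 1. The 75th percentile lay between 540 and 1402 units of intensity, lowest on the gefitinib and luteolin plus gefitinib arrays (540 to 865), and 63.4% to 70.4% of probes stood well above background. Between the 2 arrays of a group, the median SD over probes ran from 0.091 with DMSO to 0.25 with luteolin plus gefitinib. The median over all genes against DMSO was 0.084 with luteolin, 0.22 with gefitinib and 0.16 with both drugs. For gefitinib it moved to 0.37 under normexp background correction and 0.047 under quantile normalization, and the share of called genes that were raised moved from 52.3% to 66.2% and 40.4%. For both drugs that share moved from 61.1% to 71.2% and 45.9%. The keratin genes KRT8, KRT18 and KRT19, EPCAM and CDH1 were well above background on 10 of 10 arrays, as was the prostate gene KLK3. Of 9 leukocyte, endothelial and fibroblast markers, PTPRC, VWF and DCN were so on 0 of 10 arrays and CDH5 on 1. COL1A1 and COL3A1 were so on 9 and CD3E, CD14 and PECAM1 on 10, with signals of at most 292 units. KRT8, KRT18, KRT19 and EPCAM read at least 1991 units. CDH1 read only 247 to 584, which overlaps the signals of PECAM1 and COL1A1.

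Against DMSO, 1 of 9 members was called with each treatment, and each was lowered. With luteolin it was RBL1, where 13.4% of all genes were called. With gefitinib it was E2F5, where 29.9% were called, and with both drugs E2F5 again, where 19.8% were called. The members were thus called no more often than other genes against DMSO, and their medians were -0.14, 0.38 and -0.19. More genes were called between luteolin and gefitinib than against DMSO, among all genes as among the members. Between luteolin and gefitinib 5 of 9 were called (36.6% of all genes), with CCND1, CCND3, CDK4 and RBL1 lower (18.5% of all genes) and E2F5 higher (18.1%) on the luteolin arrays. The 3 comparisons with DMSO share the same 2 DMSO arrays.

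**Figure D1:**
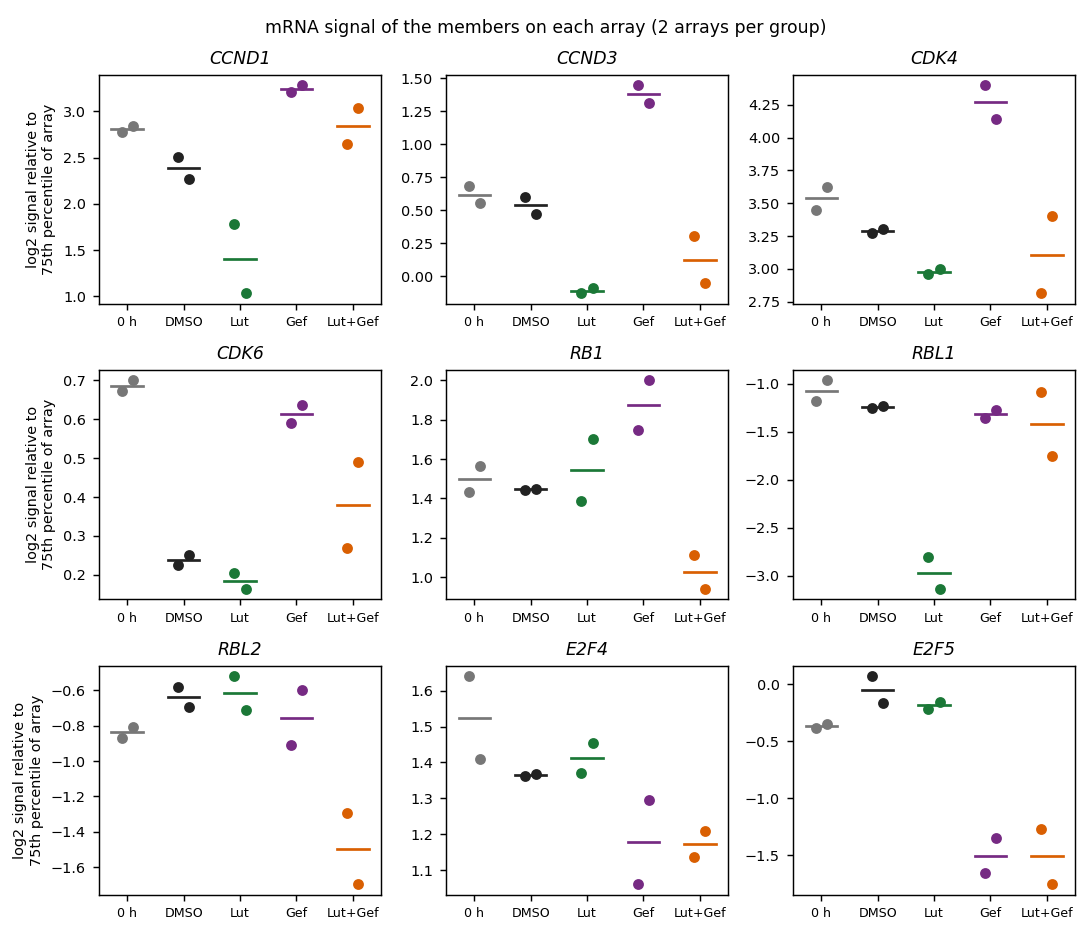
Level of the 9 measurable members on each array, as log2 signal above or below the 75th percentile (y axis, a scale of its own in each panel), for untreated cells (0 h), DMSO, luteolin (Lut), gefitinib (Gef) and both drugs (Lut+Gef). Points are the 2 arrays of a group and the bar is their mean. RBL1 is lowest on the luteolin arrays, E2F5 on the gefitinib and luteolin plus gefitinib arrays, and CCND3 and CDK4 are highest on the gefitinib arrays.

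Of the D cyclins, CCND1 was bright on all arrays. Its main probe (chr11:69176451-69176510 on hg18, the build of the array files, plus strand) read 2.78 and 2.84 at 0 h and 2.51 and 2.27 with DMSO. It read 1.78 and 1.03 with luteolin, 3.20 and 3.28 with gefitinib, and 2.64 and 3.03 with both drugs. The luteolin arrays were the lowest of all 10 and the gefitinib arrays the highest, and none of the 3 drug groups overlapped the DMSO arrays. Before subtracting each array's percentile, CCND1 read 5997 and 6124 units with gefitinib and 7692 and 6196 with DMSO. Its unscaled signal was thus not higher with gefitinib. With luteolin it read 4026 and 2131 units, below DMSO also before scaling. Against DMSO the difference was -0.98 (SE 0.25, adjusted p = 0.024) with luteolin and 0.85 (adjusted p = 0.022) with gefitinib, both under 2-fold. With both drugs it was 0.45 (adjusted p = 0.19). Between the drug groups CCND1 was called: luteolin was 1.84 below gefitinib, a difference of -1.84 (adjusted p = 0.00061), and both drugs were 1.43 above luteolin alone (adjusted p = 0.0039). In the latter comparison 3 of 9 members were called, where 21.0% of all genes were.

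The other CCND1 probes, in other places of the same transcript, gave the same order of groups with other sizes. The probe with 10 spots per array read 1.33 and 1.07 with luteolin against 1.61 and 1.62 with DMSO, a difference of -0.41 (adjusted p = 0.12). The third probe read 1.47 and 0.91 against 2.35 and 2.37, a difference of -1.17 that passed the threshold (adjusted p = 0.0094). All 3 CCND1 probes were called higher with both drugs than with luteolin, by 1.07 to 1.44. The luteolin difference from DMSO thus reached 2-fold on 1 of 3 probes. Without the first luteolin array the main probe's difference was -1.36 (adjusted p = 0.010), past the threshold, and without the second it was -0.61 (adjusted p = 0.15). On slide 1, where DMSO and luteolin arrays share a slide, the main probe's difference was -0.73, and on slide 2 it was -1.24. The gefitinib difference was 0.28 (adjusted p = 0.28) under normexp and 0.45 (adjusted p = 0.17) under quantile normalization, where it no longer passed the adjusted p.

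CCND3, the D cyclin found most widely across tissues, was measured by a probe at chr6:42011171-42011230 (minus strand). Its levels were 0.68 and 0.55 at 0 h, 0.60 and 0.47 with DMSO and 0.30 and -0.06 with both drugs. They were -0.13 and -0.09 with luteolin and 1.45 and 1.31 with gefitinib. The luteolin arrays were the lowest and the gefitinib arrays the highest, with no overlap with DMSO on either side. Before subtracting each array's percentile, CCND3 read 1777 and 1563 units with gefitinib and 2051 and 1777 with DMSO. Its unscaled signal was thus not higher with gefitinib. With luteolin it read 1072 and 977 units, below DMSO also before scaling. Against DMSO the difference was -0.65 (SE 0.17, adjusted p = 0.027) with luteolin and 0.85 (adjusted p = 0.0048) with gefitinib, neither reaching 2-fold. Luteolin stood at 0.355 times the gefitinib level (adjusted p = 0.00027), and both drugs at 0.418 times it (adjusted p = 0.00070). CCND3 and CDK4 were the members called between both drugs and gefitinib, 2 of 9 where 27.0% of all genes were.

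The second CCND3 probe, which spans 926 bases of genome and so crosses a splice junction, read -4.35 and -4.16 with luteolin against -3.06 and -3.26 with DMSO. Its difference of -1.10 passed the threshold (adjusted p = 0.0051), while its gefitinib difference of 0.84 was close to that of the first probe. With both drugs CCND3 lay 0.41 below DMSO on the first probe (adjusted p = 0.085), a difference of -0.41, where CCND1 lay 0.45 above it. The order of the groups thus matched between the D cyclins except for the arrays with both drugs, where CCND1 was nearer to gefitinib and CCND3 nearer to luteolin. The difference between the genes was not tested.

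**Figure D2:**
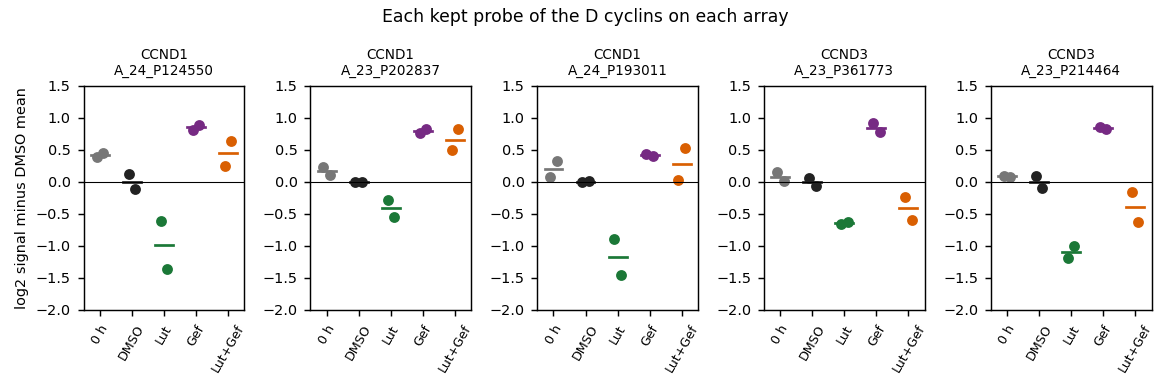
Level of each of the 3 CCND1 and 2 CCND3 probes kept, on each array, as log2 signal minus the mean of the DMSO arrays of that probe (y axis). Points are the 2 arrays of a group and bars their mean, with groups as in the plot of member levels. On all 5 probes, after subtracting each array's percentile, the luteolin arrays lie below and the gefitinib arrays above the DMSO arrays.

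CCND2, the third D cyclin, was not measurable. Its 3 probes were well above background on 1, 0 and 2 of 10 arrays. The single reading of 124 units on the second luteolin array stood beside 3.25 to 5.23 units of the same probe on the other arrays. No level or fold is given.

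CDK4, the kinase partner, was among the brighter members, and its probe lies at chr12:56428530-56428589 (minus strand). It read 3.45 and 3.63 at 0 h, 3.28 and 3.30 with DMSO and 2.96 and 3.00 with luteolin. With gefitinib it read 4.40 and 4.14, above all other arrays, and with both drugs 2.81 and 3.40, on either side of DMSO. Before subtracting the 75th percentile, CDK4 read 13743 and 11092 units with gefitinib and 13073 and 12641 with DMSO. The gefitinib difference from DMSO was 0.98 (SE 0.21, adjusted p = 0.0060), just under 2-fold, and it was 1.13 (adjusted p = 0.011) with slide as a block, which passes, as it did without the second gefitinib array (1.11, adjusted p = 0.014). Under quantile normalization it was 0.40 (adjusted p = 0.075). Luteolin stood 1.29 below gefitinib, a difference of -1.29 (adjusted p = 0.0013), and both drugs 1.16 below it, a difference of -1.16 (adjusted p = 0.0028). Under quantile normalization these differences were -0.73 and -0.81, still past the adjusted p but under 2-fold, and without the first array of both drugs the latter was -0.87 (adjusted p = 0.0077). The luteolin difference from DMSO was -0.31 (adjusted p = 0.33).

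CDK6, the other D cyclin kinase, stayed within narrow limits. Its main probe (chr7:92072379-92072438, minus strand) ran from 0.16 to 0.70 over the 10 arrays, and no comparison on it reached 2-fold. The 0 h arrays, at 0.67 and 0.70, were above the DMSO arrays, at 0.23 and 0.25. In this comparison of DMSO with 0 h, 0 of 9 members were called by limma, where 0.0355% of all genes were, and 1 had an unadjusted p under 0.05, CDK6 at -0.45 (adjusted p = 0.65). The gefitinib arrays read 0.59 and 0.64, above DMSO by 0.38 (adjusted p = 0.059). Before subtracting each array's percentile, they read 980 and 978 units, below the 1579 and 1526 with DMSO. A second CDK6 probe, whose ends lie 48399 bases apart on the genome, gave 0.61 (adjusted p = 0.051) for gefitinib and -0.39 (adjusted p = 0.25) for luteolin against DMSO, and was called between luteolin and 0 h at -1.10 (adjusted p = 0.0089).

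RB1 was measured by a probe with 10 spots per array (chr13:47953846-47953905, plus strand). It read 1.43 and 1.56 at 0 h, 1.44 and 1.45 with DMSO and 1.39 and 1.70 with luteolin. With gefitinib it read 1.75 and 2.0, and with both drugs 1.11 and 0.94. The gefitinib arrays were the highest and those with both drugs the lowest, while luteolin arrays lay on either side of DMSO. Before subtracting each array's percentile, RB1 read 2188 and 2512 units with gefitinib, below the 3673 and 3505 with DMSO. No difference from DMSO passed the test: 0.10 with luteolin (adjusted p = 0.73), 0.43 with gefitinib (adjusted p = 0.069) and -0.42 with both drugs (adjusted p = 0.087). Both drugs were below gefitinib by a difference of -0.85 (adjusted p = 0.0051) and below luteolin by -0.52 (adjusted p = 0.045), under 2-fold. On the second RB1 probe these differences were -0.48 (adjusted p = 0.054) and -0.23 (adjusted p = 0.32), so neither passed there. The difference of both drugs from DMSO was -0.11 (adjusted p = 0.65) on that probe.

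The interaction term, how far the log2 change under both drugs departs from adding up the 2 single-drug changes, was -0.94 for RB1 (SE 0.25, adjusted p = 0.021). On the probe that represents each gene it was called for 2 of 9 members, RB1 and RBL1, where 34.2% of all genes were called. It was also past the adjusted p on the third CCND1 probe (1.03, adjusted p = 0.045) and the second RBL2 probe (-0.84, adjusted p = 0.035). The main probes of CCND1 and RBL2 gave 0.58 (adjusted p = 0.24) and -0.76 (adjusted p = 0.062). The second RB1 probe, which spans 2747 bases of genome, gave -0.60 (adjusted p = 0.099). In log2 terms the drugs together thus left less RB1 signal than the sum of their separate differences on the first probe.

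RBL1 had the largest change of any pocket protein. Its main probe (chr20:35060611-35060670 on hg18, minus strand) read -1.18 and -0.97 at 0 h, -1.25 and -1.24 with DMSO and -2.81 and -3.13 with luteolin. It read -1.36 and -1.28 with gefitinib and -1.08 and -1.75 with both drugs. The luteolin arrays lay below all others by more than 1 log2 unit, and the arrays with both drugs lay on either side of DMSO. With luteolin RBL1 fell to 0.302 times the DMSO level, a log2 change of -1.73 (SE 0.23, adjusted p = 0.0019). Within slide 1 the difference was -1.56 and within slide 2 it was -1.90. With gefitinib the difference from DMSO was -0.07 (95% interval -0.61 to 0.46, adjusted p = 0.80), and with both drugs -0.17 (-0.71 to 0.36, adjusted p = 0.57).

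RBL1 was higher with both drugs than with luteolin alone by 1.55 (adjusted p = 0.0020), and its interaction was 1.63 (SE 0.33, adjusted p = 0.0072). A second probe matched to another RBL1 transcript record was well above background on 1 of 2 luteolin arrays, and gave -1.95 with luteolin against DMSO (adjusted p = 0.0044), 1.84 between both drugs and luteolin (adjusted p = 0.0038) and an interaction of 1.66 (adjusted p = 0.025). The luteolin fall was also called against 0 h, at -1.90 (adjusted p = 0.0011). CCND1 and RBL1 were the 2 of 9 members called there, where 16.1% of all genes were. These are bulk RNA values, in which fewer cells in a phase that expresses the gene and less mRNA per cell cannot be told apart.

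RBL2, the pocket protein most abundant in resting cells, was lowest where both drugs were given. Its main probe (chr16:52082347-52082406, plus strand) read -0.87 and -0.81 at 0 h, -0.58 and -0.69 with DMSO and -0.52 and -0.71 with luteolin. It read -0.91 and -0.60 with gefitinib and -1.29 and -1.70 with both drugs. The arrays with both drugs lay below the other 8. The difference from DMSO with both drugs was -0.86 (SE 0.19, adjusted p = 0.011), under 2-fold, and from luteolin and gefitinib alone it was -0.88 (adjusted p = 0.0087) and -0.74 (adjusted p = 0.014). On the second probe the difference from DMSO was -0.48 (adjusted p = 0.064). From luteolin and gefitinib alone it was -0.74 (adjusted p = 0.014) and -0.58 (adjusted p = 0.029) on that probe. Without the first array of both drugs the main probe's difference was -1.06 (adjusted p = 0.0055), past 2-fold.

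**Figure D3:**
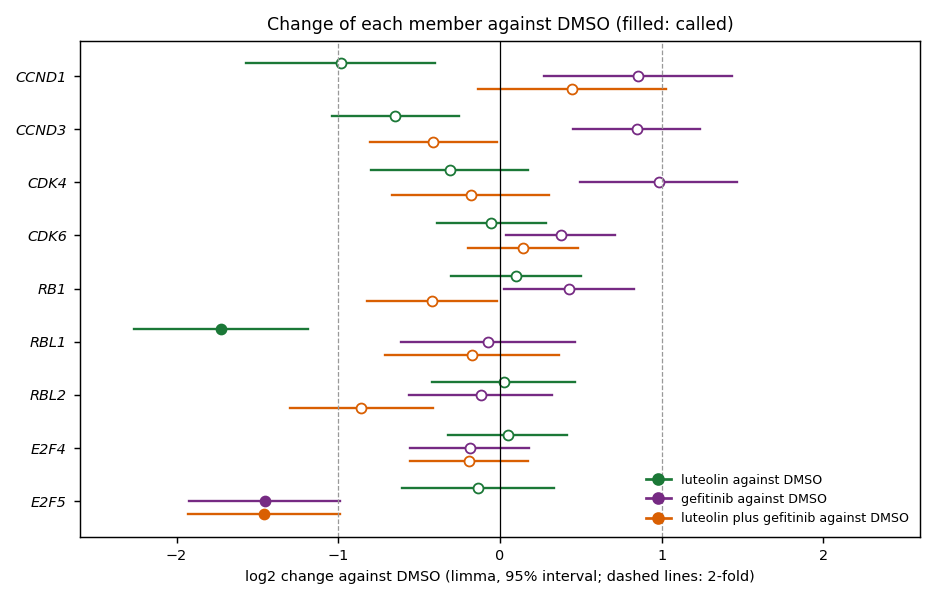
Log2 change of each member (y axis) against DMSO (x axis) with luteolin, gefitinib or both drugs, from limma on 2 arrays per group. Bars are 95% intervals, dashed lines mark 2-fold and filled points are called. RBL1 is called with luteolin at -1.73, and E2F5 with gefitinib and with both drugs at -1.46 each.

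E2F4, the repressive E2F that the RB relatives mostly bind, was not called in any comparison. Its main probe (chr16:65790187-65790246, plus strand) ran from 1.06 to 1.64 over the 10 arrays. Its differences from DMSO were 0.05 with luteolin (95% interval -0.32 to 0.42), -0.19 with gefitinib (-0.55 to 0.18) and -0.19 with both drugs (-0.56 to 0.18). All 3 intervals lie within 2-fold.

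E2F5, its close relative, changed with gefitinib and with both drugs. Its one probe, on chromosome 8, read -0.39 and -0.35 at 0 h, 0.07 and -0.17 with DMSO and -0.22 and -0.16 with luteolin. It read -1.66 and -1.35 with gefitinib and -1.27 and -1.75 with both drugs. The 4 arrays of these last groups lay below the other 6 without overlap. E2F5 fell to 0.364 times the DMSO level with gefitinib, a log2 change of -1.46 (SE 0.21, adjusted p = 0.0012), and to 0.363 times it with both drugs, a log2 change of -1.46 (adjusted p = 0.0021). On slide 1 the differences were -1.73 and -1.34, and on slide 2, which holds no gefitinib array, -1.59 with both drugs.

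With luteolin the E2F5 difference from DMSO was -0.14 (95% interval -0.61 to 0.33, adjusted p = 0.67). Luteolin was above gefitinib by 1.32 (adjusted p = 0.0010), and both drugs were below luteolin by a difference of -1.32 (adjusted p = 0.0023). Both drugs and gefitinib alone differed by 0.00 (-0.47 to 0.47), and the interaction was 0.13 (adjusted p = 0.74). Against 0 h, E2F5 was the 1 member called with gefitinib, where 29.0% of all genes were, and with both drugs, where 19.8% were, at -1.14 in each. Both calls against 0 h were lost under normexp, the first also without the first gefitinib array and the second without the second array of both drugs.

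The rest of the pathway was followed in 8 lists, some of which share genes. CCNE1 and CCNE2 stand in both the G1/S and the cyclin E list, and E2F1 in both the G1/S and the E2F list. A call of these genes counts in both lists. In the list of 20 G1/S genes with E2F sites, which holds replication licensing factors, nucleotide synthesis enzymes and E2F1 itself, 19 were called lower with luteolin and 0 higher, where 6.17% of all genes were called lower. The list median was -1.81 against 0.084 over all genes. Under the other settings with the labels as given, 18 to 19 were called. RRM2, the small subunit of ribonucleotide reductase, read 2.20 and 2.30 with DMSO and -2.26 and -2.61 with luteolin, a log2 change of -4.69 (adjusted p = 8.5e-05). RBBP8 was the member not called, at -0.46 (adjusted p = 0.092). The list was drawn up for known E2F sites, and 9 of the 16 members with a RefSeq promoter entry held 1 of the E2F letters searched above.

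With gefitinib the same list had 3 genes called higher (15.6% of all genes) and 3 lower (14.3%), with a median of 0.43 where all genes had 0.22. The number called with gefitinib varied over the other settings, here and in the list of cyclin E, cyclin A and CDK2. TYMS, which makes thymidylate, rose from 5.19 and 5.23 with DMSO to 6.39 and 6.33, a change of 1.15 (adjusted p = 0.0017). Under quantile normalization the TYMS difference was 0.36 (adjusted p = 0.046), under 2-fold. CCNE2, a cyclin E, was not well above background on either gefitinib array and was at least 5.61-fold lower than with DMSO, and on the luteolin arrays, also below background, at least 7.97-fold lower. Under normexp, which lifts low signals, its gefitinib difference was -0.87 (adjusted p = 0.0034), under 2-fold. With both drugs 0 were called higher (12.1% of all genes) and 2 lower (7.69%), with a median of -0.22. Without the second array of both drugs 0 were called, and under quantile normalization 4. Between both drugs and luteolin, 16 of the 20 were called higher, where 11.3% of all genes were, as was RBL1. RRM2 with both drugs read 1.25 and 0.56, between the luteolin and DMSO arrays, a change from DMSO of -1.34 (adjusted p = 0.0048), and without the second array of both drugs it was just under 2-fold (adjusted p = 0.016).

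**Figure D4:**
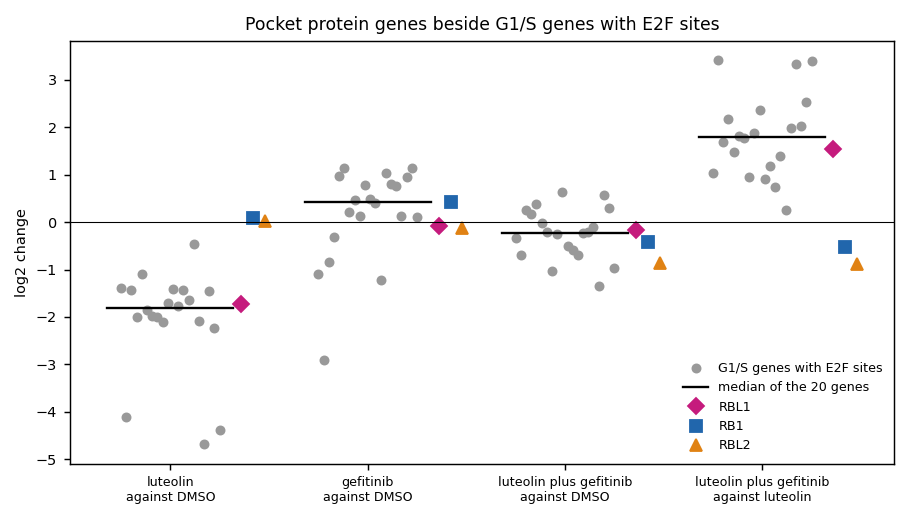
Log2 change (y axis) of 20 G1/S genes with E2F sites (grey points, in alphabetical order within a comparison, with their median as a line) beside RBL1, RB1 and RBL2, in 4 comparisons (x axis), from limma on 2 arrays per group. With luteolin against DMSO the list median is -1.81 and RBL1 is at -1.73, while RB1 and RBL2 are at 0.10 and 0.02.

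Among the other E2F and DP factors, 4 of 8 were called lower with luteolin, where 6.17% of all genes were. E2F1, the activating E2F most tied to RB1, read 0.96 and 0.92 with DMSO and -1.24 and -0.58 with luteolin, a change of -1.85 (adjusted p = 0.0022). With gefitinib it read 2.14 and 2.03, a change of 1.14 (adjusted p = 0.0073), or 0.93 under quantile normalization. It was the 1 factor called higher there (15.6% of all genes), and 4 were called lower (14.3%). With both drugs 0 of 8 were called by limma (19.8% of all genes), and 4 had an unadjusted p under 0.05. Without either luteolin array 1 was called with both drugs, and without the first array of both drugs 2. E2F2, a second activating E2F, fell with luteolin by a change of -5.37 (adjusted p = 8.5e-05), though it was well above background on 1 of 2 luteolin arrays, and by -2.48 with gefitinib (adjusted p = 0.00038). The E2F2 probe that was above background on all 10 arrays gave -0.09 with luteolin (adjusted p = 0.86) and 1.70 with gefitinib (adjusted p = 0.0017), so the direction of E2F2 depends on the probe.

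Of the 6 cyclin E, cyclin A and CDK2 genes, 5 were called lower with luteolin (6.17% of all genes), 4 with gefitinib (14.3%) and 1 with both drugs (7.69%), and none higher. Without the first array of both drugs that 1 became 3. CCNA2, cyclin A, was called lower with all 3 treatments and read 0.20 and 0.19 with DMSO against -1.37 and -1.79 with both drugs, a change of -1.78 (adjusted p = 0.0019). CDC25A, the phosphatase that activates CDK2, read 0.43 and 0.35 with DMSO and -4.03 and -4.89 with gefitinib, a change of -4.85 (adjusted p = 6.7e-05), though it was well above background on 1 of 2 gefitinib arrays.

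Of the 7 CDK inhibitor genes, 4 were called higher with luteolin (7.22% of all genes) and 1 lower (6.17%). With gefitinib 5 were called higher (15.6%) and 1 lower (14.3%), and with both drugs 4 higher (12.1%) and 0 lower (7.69%). Without the first DMSO array or the second array of both drugs, 2 were called with both drugs. CDKN2B, which makes the CDK4 and CDK6 inhibitor p15, read -0.52 and -0.39 with DMSO and 3.05 and 3.74 with luteolin, a rise of 3.86 (adjusted p = 0.00083). With both drugs it read 1.81 and 2.70, a rise of 2.71 (adjusted p = 0.0024). CDKN1C, which makes p57, rose by 1.88 with gefitinib (adjusted p = 0.00089) and by 1.84 with luteolin (adjusted p = 0.0019). With both drugs the CDKN1C difference from DMSO was 0.0086 (adjusted p = 0.98). CDKN2C, which makes p18, fell with luteolin and with gefitinib, with changes of -1.14 (adjusted p = 0.010) and -1.23 (adjusted p = 0.0038). Its luteolin call was lost when either DMSO array or the second luteolin array was left out, with adjusted p of 0.070, 0.060 and 0.076.

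The MuvB core forms a repressor complex of late cell cycle genes with pocket proteins, and an activator complex with the MYBL2 protein. Of the MuvB core genes and MYBL2, 2 of 6 were called lower with luteolin (6.17% of all genes), among them MYBL2 at -2.33 (adjusted p = 0.00095). The count fell when either DMSO array or the second luteolin array was left out. With gefitinib RBBP4 was the 1 called, higher (15.6% of all genes) at 1.10 (adjusted p = 0.00099), and it was just under 2-fold by normexp and at 0.85 by quantile normalization. Of 8 corepressors, 2 were called lower with luteolin, with SIN3B at -1.30 (adjusted p = 0.0079), a call lost without either DMSO array or the second luteolin array (adjusted p from 0.053 to 0.056), and 3 with gefitinib (14.3% of all genes), with SUV39H1, a histone methyltransferase, at -3.34 (adjusted p = 5.9e-05). Among 7 measurable genes of D cyclin turnover, 1 was called with luteolin (13.4% of all genes), 3 with gefitinib (29.9%) and 1 with both drugs (19.8%). SKP2 was called lower with luteolin at -1.31 (adjusted p = 0.016) and with gefitinib at -1.82 (adjusted p = 0.0023). Both SKP2 calls were lost under normexp, at -0.80 and -0.66, and the luteolin call without the first DMSO array or the second luteolin array (adjusted p = 0.12 for each). CRYAB was called higher with gefitinib at 2.09 (adjusted p = 0.0035) and FBXW8 with both drugs at 1.24 (adjusted p = 0.0014), or 0.92 as the median over its probes, under 2-fold. With both drugs 3 genes of this list were called without the first array of both drugs and 2 without the second DMSO array. The 3 genes of the CDK-activating kinase had 0 called by limma against DMSO in any drug group, also under the other settings, while 1, 3 and 1 had an unadjusted p under 0.05 with luteolin, gefitinib and both drugs.

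Genes whose profile over the 10 arrays was most like that of a member were found as the smallest root mean square difference of log2 levels centred on each gene's mean, among 16262 genes above background on all arrays. For RBL1 they were WDHD1, RFC5 and DNA2, at 0.17 to 0.21 beside its own range of 2.17. For CCND1 they included CYCS and SERPINB7, at 0.17 and 0.19 beside a range of 2.25. CCND3 was nearest to LOC650447, DYNLL2 and CHCHD3, at 0.094 to 0.13. RB1 was nearest to ATG5, JADE3 and DDX19B, at 0.079 to 0.088, and RBL2 to PPP2R5A, LOC653080 and SNTB2, at 0.086 to 0.088. These are descriptions over 10 arrays that share the groups and the scaling.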

How the data were processed

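Total RNA of PC-3 cells was labelled with Cy3 and hybridized to 1 array per sample. The authors deposited scanner output as intensities on a linear scale, background-subtracted and detrended within each array and not normalized between arrays, and a value table with the same intensities (largest relative difference 0). Samples were grouped by their labels, and every sample column was used (0 left over).

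Control and outlier spots were left out. Spots of a probe were averaged as log2 intensity relative to the array's 75th percentile. Per the file headers the software was Feature Extraction 10.7.3.1. A probe was kept if at least 50% of its spots exceeded background clearly on each array of a group, and a gene was represented by its kept probe with the highest mean. RefSeq accessions named 23958 probes, and other probes kept the name in the file. With R 4.3.3 and limma 3.58.1, all 10 arrays in 5 groups were fitted (5 residual and 3.36 prior degrees of freedom), with Benjamini-Hochberg adjustment across the 28776 probes. Calls used adjusted p below 0.05 with a 2-fold difference, and for the interaction no fold. A fold against a group below background is a bound, taking for each of its arrays the larger of the probe's signal and the array's dimmest signal well above background. The number of arrays limits the precision. The fit was tested on simulated arrays.

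Members, lists and tests were chosen with earlier results of these data known. Genes named are the members, in each list the called gene with the largest rise and the largest fall against DMSO in each drug group, and the 3 genes most like CCND1, CCND3, RB1, RBL1 and RBL2. RBBP8 was named after its values were seen, and marker genes as markers. Some genes that this rule or the marker lists name are not reported here. Alternatives were normexp (offset 50), quantile normalization, other probe filters, the value table, a block for replicate number or for slide, fits on the compared groups alone, treatments taken from file names, calls without a minimum fold, the median over probes, leaving out each array, and the methods' 1-sample t-test against 0 h.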

Additional observations from a re-analysis of the deposited data

Results flagged for a closer look

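In 2 members the response to one drug differed with the other drug present, on the probe that represents the gene. Their interaction term was past the adjusted p, 2 of 9 where 34.2% of all genes were called. For RBL1 the interaction was 1.63 (adjusted p = 0.0072) on the log2 scale, with -1.73 for luteolin alone, -0.07 for gefitinib alone and -0.17 for both against DMSO. For RB1 it was -0.94 (adjusted p = 0.021), with 0.10, 0.43 and -0.42. The RB1 term was not past the adjusted p on its second probe, and was lost when either DMSO array, the second luteolin array or the second gefitinib array was left out, which leaves 1 member called, RBL1.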

How the results depend on the processing

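Of 1026 values of the members against DMSO or between drug groups under settings that keep the labels, 1015 stayed on their side of the threshold, 3 dropped under it, 8 came past it and 0 reversed. Many of these settings could not change the size of a member's difference. The value table holds the same intensities. A block for replicate number, fits on the compared groups alone and leaving out an array outside the comparison alter only its error. The count of values that stayed is therefore not a count of separate checks. A reversal was counted only where the value was called in the main fit or under the setting. Uncalled values could change sign, as CDK4 with both drugs against DMSO did, from -0.47 to 0.11. Of 434 values of the other genes named, 414 kept their side, 19 dropped under it and 1 reversed, E2F2 with gefitinib, at 1.70 with only probes above background on all arrays.

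Members called against DMSO with luteolin were 2 under normexp, under quantile normalization and with the median over probes (CCND1 with RBL1), and 3 with no minimum fold. With gefitinib they were 2 with slide as a block and 4 with no minimum fold, and with both drugs 2 with no minimum fold. With no minimum fold, 5 were called between both drugs and luteolin and 4 between both drugs and gefitinib, where quantile normalization left 1. The interaction was called for 5 under normexp and for 4 with only probes above background on all arrays. Against 0 h, no minimum fold gave 4 with luteolin, 3 with gefitinib and 3 with both drugs. Normexp gave 0 with gefitinib and 0 with both drugs. The methods' t-test gave 0 in each of these 3 comparisons, with and without Benjamini-Hochberg adjustment, and each group has 2 arrays.

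With the treatments of the file names, 3 members were called between luteolin and gefitinib, 5 between both drugs and gefitinib and 5 for the interaction. Against 0 h, 1 member was called with luteolin and 2 with gefitinib. Against DMSO the RBL1 call at -1.73 then belonged to gefitinib, and the E2F5 calls at -1.46 to luteolin and to both drugs. RBL1 with luteolin was then at -0.17 and not called. The 19 G1/S genes called lower were then so with gefitinib. Reversed differences between luteolin and gefitinib were then 1.43 for CCND1, 0.24 for CCND3, 0.13 for CDK4, 1.55 for RBL1 and -1.32 for E2F5. Between both drugs and gefitinib they were 1.84 for CCND1, 1.49 for CCND3, 1.29 for CDK4 and 1.65 for RBL1, and between both drugs and luteolin 0.0045 for E2F5. E2F1, RBBP4 and TYMS with gefitinib against DMSO were -1.85, -0.42 and -2.24, and RRM2 with both drugs was 0.14. Which treatment is right was not tested.

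Leaving out 1 array at a time, where a lone array is assumed to vary like the other groups, members called ran from 1 to 2 with luteolin, from 1 to 2 with gefitinib and from 1 to 2 with both drugs against DMSO. They ran from 1 to 2 between both drugs and gefitinib (1 without the first array of both drugs) and from 1 to 4 for the interaction. The 4 came without the first array of both drugs. They ran from 0 to 1 with gefitinib and from 0 to 1 with both drugs against 0 h. Called list members ranged from 2 to 5 for E2F and DP factors, 3 to 5 for cyclin E, cyclin A and CDK2, 3 to 5 for CDK inhibitors, 1 to 2 for MuvB, 0 to 2 for corepressors and 0 to 1 for D cyclin turnover with luteolin against DMSO, over 19 settings chosen for the lists after seeing the data. With both drugs they ranged from 0 to 2 for E2F and DP factors, 1 to 3 for cyclin E, cyclin A and CDK2, 2 to 5 for CDK inhibitors and 1 to 3 for D cyclin turnover.

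Replicate number as a block left the members called against DMSO at 1 with each treatment. The replicate numbers do not mark a shared batch in the labels, but they go largely with the slide. Slide 1 held the first arrays of DMSO, luteolin, gefitinib and both drugs. Slide 2 held the second arrays of 0 h, DMSO, luteolin and both drugs. The first 0 h array and the second gefitinib array were on slide 3. Deviations of arrays with the same number correlated from -0.098 to 0.29 over the pairs of groups, so the numbers were not taken to pair the arrays. The depth of these results is set by signal over background and by 2 arrays per group.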
